A study of Homo sapiens with 6 samples.

Results

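The genes described here are 10 members of the activin, bone morphogenetic protein (BMP) and transforming growth factor beta (TGF-beta) signalling family: INHBA, INHBB, FST, TGFB1, TGFB2, BMP2, BMP4, SMAD7, ID1 and ID3. They were chosen by name, with earlier results of these data known, and all 10 were found by symbol among the 30178 gene IDs of the expression table. Of these, 9 passed the filter on low values (a mean of at least 1 FPKM over the 6 libraries, met by 11481 genes), and SMAD7 did not. RNA sequencing of total RNA compared 3 stable lines of CAL27, an established cell line from a carcinoma of the mouth, with 2 libraries (A and B) in each group. The vector group carried an empty vector, the wild-type group carried wild-type MB21D2, and the Q311E group carried MB21D2 with the Q311E substitution, a protein of the nucleotidyltransferase fold family. All lines were made with GFP-fused proteins and were kept under the selection drug G418 in DMEM with serum, so the vector group shares the drug and the medium with both others. Neither the clonality of a line nor the relation of A to B (separate cultures or repeats of 1 culture) is stated in the labels. The p-values therefore reflect no more than the spread between these libraries, and that spread may be technical.

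Activins are dimers of inhibin beta subunits. They and the TGF-beta ligands bind type II and type I receptor kinases, which phosphorylate SMAD2 and SMAD3, whereas BMP ligands act mainly through SMAD1, SMAD5 and SMAD8. Both branches share SMAD4 and are held back outside the cell by binding proteins such as follistatin and noggin, and inside it by the inhibitory SMADs. In squamous epithelium TGF-beta signalling is known as a brake on keratinocyte growth, and in carcinoma it is also known for matrix production and invasion.

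The promoters of 3 of the genes are shown because their transcripts moved farthest between libraries: INHBA and INHBB, the activin subunit genes, and ID1, a BMP target gene. The sequences are from RefSeq (GRCh38.p14), read 5′ to 3′ on the gene's strand, and stop before the first base of any annotated exon. INHBA is chr7:41703109-41703340 on the minus strand, which lies between annotated exons of the gene. INHBB is chr2:120345886-120346135 on the plus strand and ID1 is chr20:31605039-31605282 on the plus strand. Capitals mark GGCGCC, a sequence known to bind BMP-activated SMADs.
INHBA: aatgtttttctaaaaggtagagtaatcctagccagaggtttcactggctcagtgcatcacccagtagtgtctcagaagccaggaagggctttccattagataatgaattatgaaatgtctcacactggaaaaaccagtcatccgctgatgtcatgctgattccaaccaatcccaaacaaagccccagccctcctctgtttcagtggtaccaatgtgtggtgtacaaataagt
INHBB: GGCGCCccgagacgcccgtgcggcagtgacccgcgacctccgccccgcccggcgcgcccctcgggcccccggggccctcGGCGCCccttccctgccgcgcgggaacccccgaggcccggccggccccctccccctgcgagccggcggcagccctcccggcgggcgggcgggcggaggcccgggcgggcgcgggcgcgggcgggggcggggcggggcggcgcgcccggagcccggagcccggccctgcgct
ID1: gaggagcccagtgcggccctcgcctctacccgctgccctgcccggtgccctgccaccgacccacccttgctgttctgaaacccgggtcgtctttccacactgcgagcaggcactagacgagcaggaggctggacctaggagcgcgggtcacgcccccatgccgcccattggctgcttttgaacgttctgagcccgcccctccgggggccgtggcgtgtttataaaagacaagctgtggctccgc
The stretches were searched on both strands for GTCTAGAC and CAGAC, known SMAD-binding sequences, for GGCGCC, and for CACGTG, an E-box. No motif contains another. INHBB held 2 copies of GGCGCC, and the other searched letters were not in these windows. In the 250 bases before the start of all 35116 promoters in the table, GGCGCC occurred in 16.4%, CAGAC in 38%, CACGTG in 6.34% and GTCTAGAC in 0.182%. G and C made up 44.0% of the INHBA stretch, 66.4% of that of ID1 and 89.6% of that of INHBB. These matches are descriptions of the sequence, and binding was not measured.

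The library totals behind the values lay between 20645413 and 24147307 reads. MB21D2 itself was at 8.32 and 7.15 FPKM in vector A and B, at 104 and 106 FPKM with wild type and at 32.8 and 21.2 FPKM with Q311E. Every library labelled with introduced MB21D2 was thus above both vector libraries, at different levels. These gene totals do not tell wild type from Q311E. The Q311E libraries stood apart from each other: the SD of the log2 difference between A and B over all tested genes was 0.436, against 0.145 for wild type and 0.192 for vector. All 10 squamous epithelium markers reached a mean of 1 FPKM over all libraries, although KRT14 (0.837) and PKP1 (0.439) were under it with Q311E. Their summed level was 2010 to 2097 FPKM with vector, 1008 to 1020 with wild type and 1188 to 1237 with Q311E. Much of that difference was KRT14, at 762 and 697 FPKM with vector, 2.08 and 2.35 with wild type and 0.771 and 0.902 with Q311E, and without it the sums were 1313 to 1335, 1006 to 1018 and 1187 to 1236 FPKM. CDH1 went the other way, at 61.7 and 58.4 FPKM with vector, 66.0 and 66.6 with wild type and 75.0 and 72.0 with Q311E. In the order vector, wild type and Q311E, mean FPKM was 77.2, 33.4 and 120.5 for KRT17 and 144.4, 165.3 and 130.1 for EPCAM. It was 106.7, 8.69 and 15.8 for KRT6A. The means of KRT5, TP63, SFN, DSG3 and PKP1 were below vector in both MB21D2 groups. For KRT5 and TP63, however, Q311E B was above both vector libraries. KRT5 was at 522 and 536.9 FPKM with vector and at 472.6 and 579.3 with Q311E. TP63 was at 30.2 and 29.8 FPKM with vector and at 19.8 and 32.5 with Q311E. Of the markers of other cell types, 2 of 10 for fibroblasts (COL1A1 and COL1A2, list sum 2.52 to 3.97 FPKM), 1 of 6 in the table for immune cells (CD14, list sum 2.38 to 19.4 FPKM, highest in Q311E B) and 1 of 5 in the table for endothelium (CDH5, list sum 15.5 to 35.6 FPKM) reached that level. Fewer cells of a type and less RNA per cell cannot be told apart in these bulk libraries.

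Of the activin subunit genes, INHBB rose with wild-type MB21D2 and INHBA did not pass the test, while FST, which encodes the activin-binding protein follistatin, fell. INHBB (ENSG00000163083, chr2:120346143-120351808) encodes the subunit of activin B. It was at 0.723 and 0.650 FPKM in vector A and B, at 14.6 and 14.4 FPKM with wild type and at 16.1 and 3.42 FPKM with Q311E. All 4 libraries with introduced MB21D2 lay above both vector libraries, and Q311E B lay far below the other 3. The vector values rest on 56 and 43 recovered reads and the highest value on 1096. The mean was 0.687 ± 0.0521 FPKM (SD, n = 2) with vector, 14.5 ± 0.182 with wild type and 9.74 ± 8.94 with Q311E. The vector mean lay under the filter of 1 FPKM, so INHBB was tested only because of its level in the MB21D2 groups. INHBB rose 21.1-fold in mean FPKM with wild type, a difference of 3.20 ± 0.59 (SE) on the log2(FPKM + 1) scale (limma, Benjamini-Hochberg adjusted p = 0.0308). With Q311E it rose 14.2-fold in mean FPKM, with a log2 difference of 2.36 ± 0.59 (limma, adjusted p = 0.0494). That second call rests close to the threshold of 0.05: with only vector and Q311E in the fit the adjusted p was 0.119, with quantile normalization it was 0.0603 and with limma-voom 0.0966, while each Q311E library alone lay above the vector mean, by 3.34 (A) and 1.39 (B) on the log2(FPKM + 1) scale. Q311E and wild type overlapped, with a log2 difference of -0.84 ± 0.59 (limma, adjusted p = 0.321). On the count model of limma-voom the wild-type difference of INHBB was 4.38 on the log2 scale with an adjusted p of 0.0605.

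INHBA (ENSG00000122641, chr7:41667168-41705834) encodes the subunit of activin A. It was at 14.7 and 11.97 FPKM in vector A and B, at 22.5 and 22.9 FPKM with wild type and at 29.4 and 10.6 FPKM with Q311E. Both wild-type libraries were above both vector libraries, whereas Q311E A was the highest library of all and Q311E B the lowest. The log2(FPKM + 1) difference was 0.73 ± 0.43 with wild type (limma, adjusted p = 0.298) and 0.40 ± 0.43 with Q311E (adjusted p = 0.55), neither of which passed the test. The SE comes from a spread shared by all 3 groups. With only vector and wild type in the fit, the adjusted p of the first difference was 0.0031. INHBA-AS1, an antisense gene that overlaps INHBA, was listed at 0.199 to 0.408 FPKM, and whether the counting used strand is not given in the sources used here.

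FST (ENSG00000134363, chr5:53480409-53487134) was at 39.8 and 37.1 FPKM in vector A and B, at 26.5 and 26.3 FPKM with wild type and at 46.6 and 51.3 FPKM with Q311E. The 3 groups did not overlap, and Q311E A and B lay close together. FST fell by 0.53 ± 0.08 on the log2(FPKM + 1) scale with wild type (limma, adjusted p = 0.0209) and rose by 0.34 ± 0.08 with Q311E (adjusted p = 0.0458). Between Q311E and wild type it was higher by 0.87 ± 0.08 (limma, adjusted p = 0.00514), the smallest adjusted p of the 10 genes in any comparison. The rise over vector was not called with only those groups in the fit (limma, adjusted p = 0.15), nor with median scaling (adjusted p = 0.0651) or TPM scaling (adjusted p = 0.076).

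FPKM is scaled to gene length, so levels of these genes can be set side by side within a library. INHBA and INHBB together came to 15.5 and 12.6 FPKM in vector A and B, to 37.1 and 37.2 FPKM with wild type and to 45.4 and 14.1 FPKM with Q311E. INHBB made up 4.68% and 5.15% of that sum with vector, 39.4% and 38.6% with wild type and 35.4% and 24.3% with Q311E. Its share was therefore higher in Q311E B than in both vector libraries although the sum was within their range. FST was 2.57 and 2.94 times that sum in vector A and B, 0.713 and 0.705 times with wild type and 1.03 and 3.65 times with Q311E. Follistatin transcripts were thus fewer than the subunit transcripts in the wild-type libraries, about level with them in Q311E A and above them in the other 3. Protein and activin activity were not measured.

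**Figure D1:**
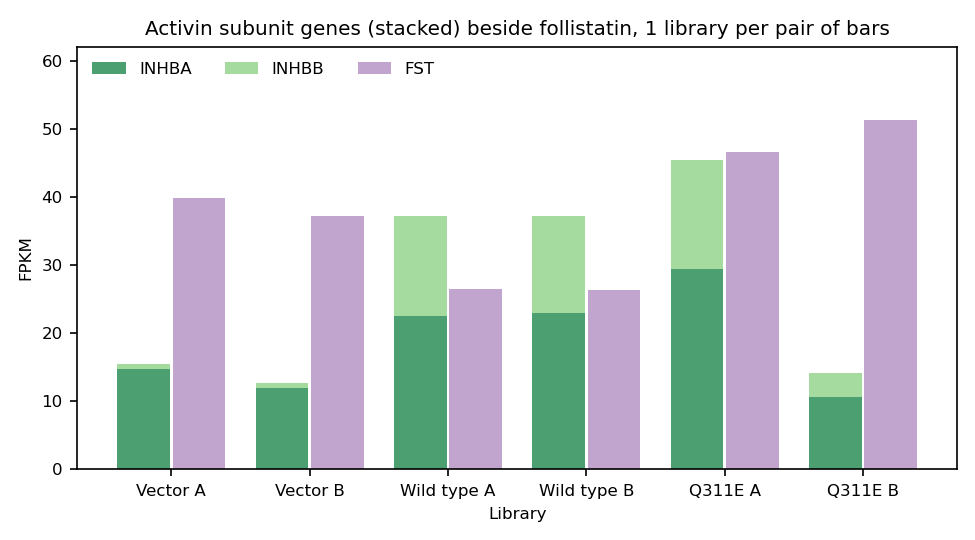
FPKM (y axis) of INHBA and INHBB, stacked, beside that of FST in each of the 6 libraries (x axis), 1 pair of bars a library. FST is the lower bar in both wild-type libraries, where the stacked sum is 37.1 and 37.2 FPKM, and is the higher bar in the other 4.

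Of the TGF-beta ligand genes, TGFB1 was lower in all 4 libraries with introduced MB21D2, and TGFB2 was highest in 1 Q311E library. TGFB1 (ENSG00000105329, chr19:41301587-41353911) encodes TGF-beta 1, secreted in a latent complex. It was at 11.3 and 12.5 FPKM in vector A and B, at 8.12 and 8.56 FPKM with wild type and at 5.94 and 7.87 FPKM with Q311E. The groups followed in that order without overlap. TGFB1 fell by 0.72 ± 0.14 on the log2(FPKM + 1) scale with Q311E (limma, adjusted p = 0.0257), and the difference with wild type, -0.46 ± 0.14, was not called (adjusted p = 0.0843). Q311E against wild type, -0.25 ± 0.14, was not called either (limma, adjusted p = 0.208). With only 2 groups in the fit the wild-type difference had an adjusted p of 0.00437 and the Q311E difference one of 0.0868, so which of them passed depended on the groups in the fit. Genes on the opposite strand overlap TGFB1, among them HNRNPUL1 at 59.3 to 80.6 FPKM, and without strand their reads cannot be told apart where exons overlap.

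TGFB2 (ENSG00000092969, chr1:218346235-218444619) encodes TGF-beta 2. It was at 20.6 and 18.3 FPKM in vector A and B, at 23.0 and 21.5 FPKM with wild type and at 36.5 and 19.1 FPKM with Q311E. Q311E A was the highest library and Q311E B lay between the vector libraries. The log2(FPKM + 1) differences from vector, 0.19 ± 0.29 with wild type and 0.43 ± 0.29 with Q311E, were not called (limma, adjusted p = 0.68 and 0.335). TGFB2 was also the 1 tested gene of the 10 that was not called for wild type with only 2 groups in the fit (adjusted p = 0.0815).

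BMP2 was lower with wild-type MB21D2 and near the vector level with Q311E, and BMP4 went the other way with wild type. Both encode BMP ligands. BMP2 (ENSG00000125845, chr20:6767664-6780280) was at 2.71 and 2.57 FPKM in vector A and B, at 1.497 and 1.43 FPKM with wild type and at 2.25 and 2.87 FPKM with Q311E. The wild-type libraries were below the other 4, and the Q311E libraries lay on either side of the vector libraries. BMP2 fell by 0.56 ± 0.12 on the log2(FPKM + 1) scale with wild type (limma, adjusted p = 0.0411) and was higher by 0.53 ± 0.12 in Q311E than in wild type (adjusted p = 0.0299). Against vector the Q311E difference was -0.04 ± 0.12 (limma, adjusted p = 0.854). The first call was lost with median scaling (limma, adjusted p = 0.0639) and quantile normalization (0.0679), and the second with only the 2 groups in the fit (0.08), median scaling (0.053) and quantile normalization (log2 difference 0.31, 0.0885). BMP2 lies on the short arm of chromosome 20. Its neighbours were taken as 30 tested genes, in equal number on each side, with starts from 3888839 to 17613678. Their median log2(FPKM + 1) difference was -0.47 between Q311E and vector and -0.37 between Q311E and wild type. The differences of BMP2 itself, -0.04 and 0.53, thus lay above the median of its neighbours, a contrast that was not tested.

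BMP4 (ENSG00000125378, chr14:53949736-53958761) was at 2.29 and 2.67 FPKM in vector A and B, at 4.53 and 4.06 FPKM with wild type and at 4.57 and 2.20 FPKM with Q311E. Wild type and Q311E A were high, and Q311E B was the lowest library. The log2(FPKM + 1) difference was 0.61 ± 0.26 with wild type (limma, adjusted p = 0.182) and 0.28 ± 0.26 with Q311E (adjusted p = 0.487), so neither passed, and with only vector and wild type in the fit the first had an adjusted p of 0.00459.

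SMAD7 (ENSG00000101665, chr18:48919853-48952052), the inhibitory SMAD that blocks type I receptors, was low in every library. It was at 0.732 and 0.789 FPKM in vector A and B, at 0.784 and 0.904 FPKM with wild type and at 0.486 and 0.579 FPKM with Q311E. The Q311E libraries were below the other 4, whose ranges overlapped. These values rest on 52 to 97 recovered reads, and the 95% Poisson intervals, which cover counting error only, ran from 0.363 to 0.637 FPKM in Q311E A and from 0.588 to 0.901 FPKM in vector A. SMAD7 was not tested in the main fit. Without the filter on low values, its Q311E difference from vector, -0.20 on the log2(FPKM + 1) scale, had an adjusted p of 0.42 (limma).

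ID1 and ID3 encode inhibitors of basic helix-loop-helix factors and are direct targets of BMP signalling in many cell types. ID1 (ENSG00000125968, chr20:31605283-31606515) was at 41.5 and 47.8 FPKM in vector A and B, at 24.5 and 24.95 FPKM with wild type and at 5.37 and 59.0 FPKM with Q311E. Q311E A held the lowest level and Q311E B the highest, 10.97 times as high, on 141 and 1572 recovered reads. The log2(FPKM + 1) difference from vector was -0.82 ± 0.98 with wild type (limma, adjusted p = 0.594) and -1.22 ± 0.98 with Q311E (adjusted p = 0.417), and the latter was -2.84 for Q311E A alone and 0.40 for Q311E B alone. ID1 also lies on chromosome 20, on the long arm. The median of the 30 tested genes around it, taken in equal number on each side, was -0.15 between Q311E and vector. Their starts ran from 23362182 to 33655701, so some of this span is on the short arm.

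ID3 (ENSG00000117318, chr1:23557918-23559794) was at 40.7 and 38.7 FPKM in vector A and B, at 30.3 and 30.0 FPKM with wild type and at 18.4 and 38.8 FPKM with Q311E. As for ID1, Q311E A was lowest and wild type lay below vector, but Q311E B lay within the vector range. The log2(FPKM + 1) differences from vector were -0.39 ± 0.32 with wild type (limma, adjusted p = 0.449) and -0.55 ± 0.32 with Q311E (adjusted p = 0.274). With only vector and wild type in the fit, the adjusted p was 0.00107 for ID1 and 0.00275 for ID3.

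**Figure D2:**
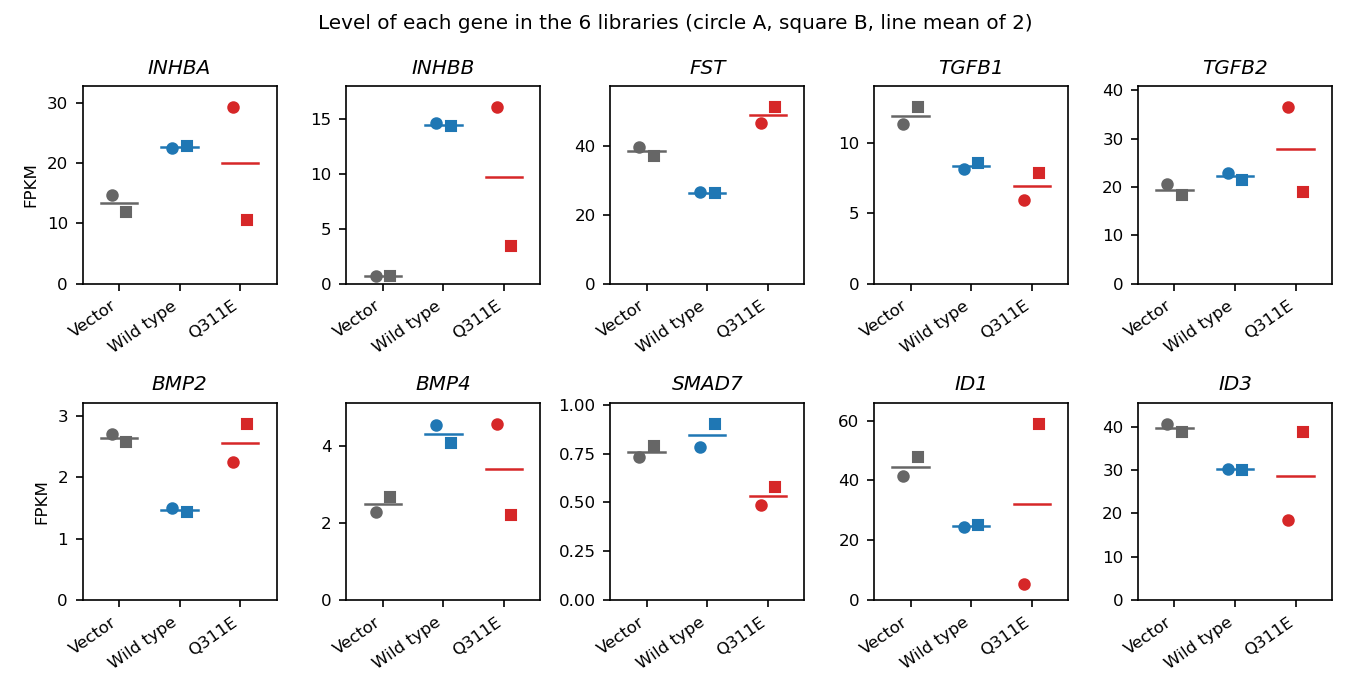
FPKM (y axis, from 0, its own scale in each panel) of the 10 genes in the 3 groups (x axis), with circles for library A, squares for library B and a line at the mean of 2 libraries. The wild-type libraries lie close together in each panel, and the Q311E libraries lie far apart for ID1 (5.37 and 59.0 FPKM), INHBB, INHBA and ID3.

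Ordered by mean FPKM, ID1 was highest with vector, ID3 with wild type and FST with Q311E. With vector the order was ID1, ID3, FST, TGFB2, INHBA, TGFB1, BMP2, BMP4, SMAD7 and INHBB. With wild type it was ID3, FST, ID1, INHBA, TGFB2, INHBB, TGFB1, BMP4, BMP2 and SMAD7. With Q311E it was FST, ID1, ID3, TGFB2, INHBA, INHBB, TGFB1, BMP4, BMP2 and SMAD7. INHBB was last with vector and stood above TGFB1 with wild type and Q311E. Neighbours in the order whose libraries overlapped were ID3 and FST, INHBA and TGFB1, and BMP2 and BMP4 with vector, and INHBA and TGFB2 with wild type. With Q311E every pair of neighbours from FST down to TGFB1 overlapped, as did BMP4 and BMP2.

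The counts that follow are descriptive. The 10 genes were chosen with earlier results of these data known, and INHBB passed the filter only through the MB21D2 groups. For wild type against vector, 1 of the 9 tested genes was called higher (INHBB), against 3.54% of all tested genes, and 2 were called lower (FST and BMP2), against 8.76%. The groups did not overlap for any of the 9, where 77% of all tested genes did not overlap. With only these 2 groups in the fit, 8 of the 9 were called, against 45.9% of all tested genes. For Q311E against vector, 2 were called higher (INHBB and FST), against 8.67%, and 1 lower (TGFB1), against 9.28%. The groups did not overlap for 3 of the 9, against 60.1%, and with 2 groups in the fit limma called 0, against 2.28%, with 3 at an unadjusted p under 0.05. For Q311E against wild type, 2 were called higher (FST and BMP2), against 17.5%, and 0 lower, against 10.1%. With limma, 2 of the 9 had an unadjusted p under 0.05 in that comparison, in either direction. Here 3 of the 9 did not overlap, against 70.1%, and with 2 groups in the fit 1 was called (FST), against 8.47%. The median log2(FPKM + 1) difference of the 9 was -0.39, 0.28 and -0.25 in these comparisons, beside -0.05, 0.00 and 0.05 over all tested genes. The comparisons share libraries, so they do not count as separate evidence. The background split moved with the scaling: of all calls, 28.8% were higher for wild type against vector and 63.4% for Q311E against wild type, but 47.6% and 39.3% with median scaling, which took the median difference of the latter from 0.05 to -0.06 on the log2(FPKM + 1) scale. Under quantile normalization these shares were 43.9% and 44.7%, and for Q311E against vector they were 48.3% as tested and 58.2% with TPM scaling. No tested gene of the 10 changed direction under these 3 scalings.

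The number of calls moved when 1 library was left out, which leaves 1 library in a group. The sizes called for wild type against vector moved little without a vector or wild-type library. On the log2(FPKM + 1) scale they were 3.17 to 3.23 for INHBB, -0.58 to -0.48 for FST and -0.59 to -0.54 for BMP2. Without any 1 of vector A, vector B, wild type A or wild type B, limma called 0 of the 9 for wild type against vector and 0 for Q311E against vector, with 2 to 4 at an unadjusted p under 0.05 in each such fit. For Q311E against wild type, 1 (FST) was called without either vector library and 0 without either wild-type library (A and B in turn), where FST had an adjusted p of 0.0816 and 0.086 and 2 of the 9 had an unadjusted p under 0.05. Without Q311E A, 8, 4 and 7 of the 9 were called in the 3 comparisons, and without Q311E B 8, 8 and 6, on a spread then set by the vector and wild-type libraries.

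**Figure D3:**
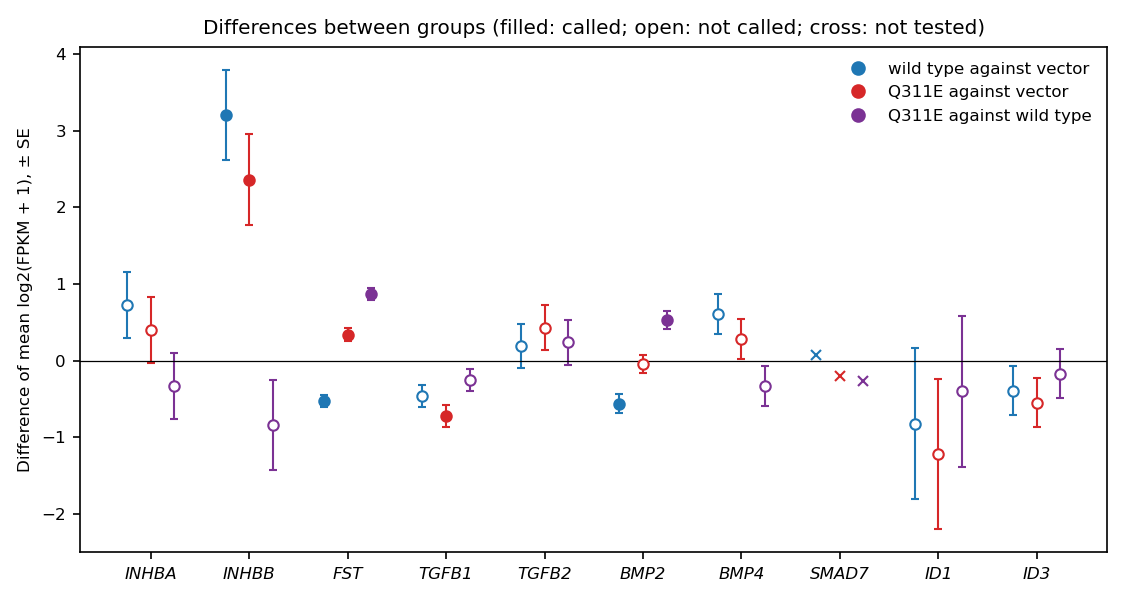
Difference between group means of log2(FPKM + 1) (y axis) for each gene (x axis) in the 3 comparisons, with bars of ± 1 SE from the limma fit of all groups. Filled points were called at an adjusted p under 0.05, open points were not, and crosses mark SMAD7, which was not tested; INHBB reaches 3.20 with wild type and the bars of ID1 are the widest.

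In several of these genes the Q311E libraries differed from each other more than in most tested genes. The genes were chosen with earlier results of these data known, so this is a description. Between A and B, 4 of the 10 (INHBA, INHBB, ID1 and ID3) differed by at least 1 on the log2(FPKM + 1) scale, as did 386 of the 11481 tested genes (3.36%). The median absolute difference was 0.85 for the 10 genes and 0.23 for all tested genes. INHBA, INHBB, TGFB2 and BMP4 were higher in A, by 1.38, 1.95, 0.90 and 0.80, and ID1 and ID3 were higher in B, where the difference A minus B was -3.23 and -1.04. FST, TGFB1, BMP2 and SMAD7 differed by -0.35 to -0.09, slightly higher in B. In size, FST (-0.13) and SMAD7 (-0.09, not a tested gene) lay under the median of all tested genes. Against the vector mean, Q311E A went the way of both wild-type libraries for INHBA, INHBB, TGFB1, TGFB2, BMP2, BMP4, ID1 and ID3, and Q311E B did so for INHBB, TGFB1 and ID3, at -0.03 for the last. MB21D2 itself was at 32.8 FPKM in Q311E A and 21.2 FPKM in Q311E B, and its part in these differences was not tested. With 1 Q311E library left out, and the other taken to vary like the vector and wild-type libraries, ID1 differed from vector by -2.84 for A (limma, adjusted p = 0.000127) and by 0.40 for B (adjusted p = 0.0162), on the log2(FPKM + 1) scale.

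**Figure D4:**
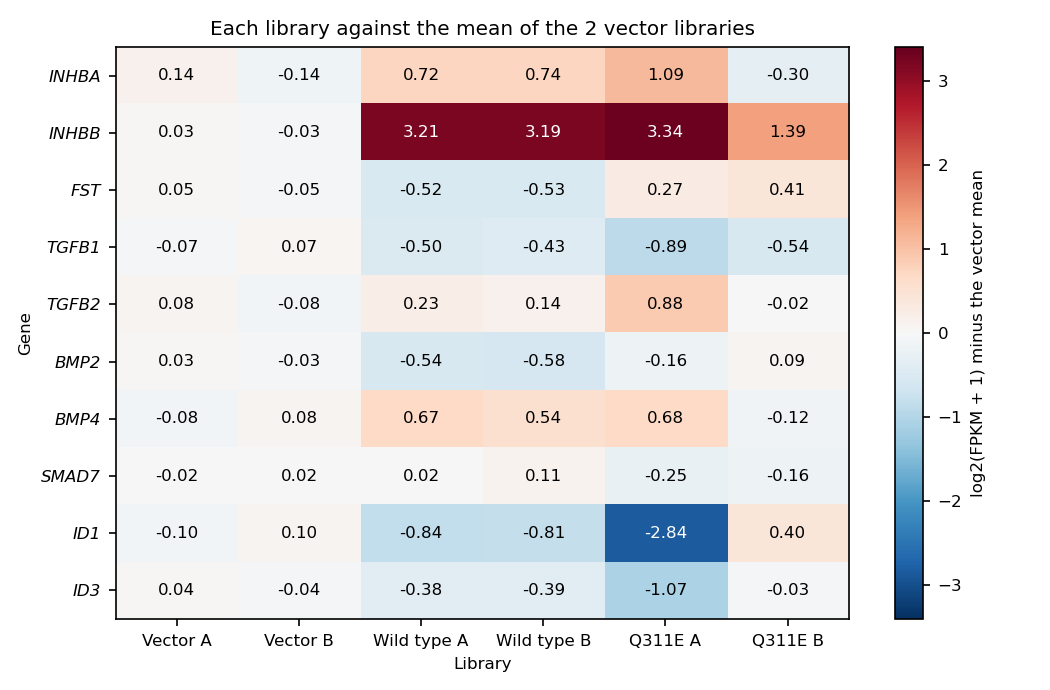
Difference of each library (columns) from the mean of the 2 vector libraries on the log2(FPKM + 1) scale (colour and printed value) for the 10 genes (rows). Both wild-type columns are alike in each row, whereas Q311E A and B differ in sign for INHBA (1.09 and -0.30), ID1 (-2.84 and 0.40), TGFB2, BMP2 and BMP4.

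The rest of the pathway was read from 6 lists of 107 further genes, of which 91 were in the table and 50 were tested. A few genes stand in more than 1 list. The lists were also chosen with earlier results of these data known, so the counts are descriptive. For wild type against vector, 6 of the 50 rose, against 3.54% of all tested genes, and 4 fell, against 8.76%. For Q311E against vector 9 rose, against 8.67%, and 2 fell, against 9.28%. For Q311E against wild type 8 rose, against 17.5%, and 2 fell, against 10.1%. In either direction 12.3%, 18% and 27.5% of all tested genes were called in these comparisons, the background for the counts by list that follow. Their median log2(FPKM + 1) difference was 0.00, 0.16 and 0.08 in turn. With only the 2 groups compared in the fit, 26, 4 and 7 were called, and leaving out 1 library at a time gave 0 to 25, 0 to 29 and 0 to 29. The count was 0 without vector B or either wild-type library in the first comparison, without either vector library in the second and without either wild-type library in the third, with 9 to 14 of the 50 at an unadjusted limma p under 0.05 in those fits.

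Among other ligands, 4 of 16 in the table were tested. GDF15, a stress-induced member of the superfamily, was at 7.02 and 12 FPKM in vector A and B, at 1.43 and 1.35 FPKM with wild type and at 13.7 and 28.1 FPKM with Q311E. The wild-type libraries were lowest and the Q311E libraries highest. GDF15 fell by 2.10 ± 0.37 on the log2(FPKM + 1) scale with wild type (limma, adjusted p = 0.0275) and was higher by 3.11 in Q311E than in wild type (adjusted p = 0.00784). BMP5, a BMP ligand, rose by 0.48 ± 0.11 with wild type (limma, adjusted p = 0.0464). No other ligand was called with Q311E against vector, where limma gave 2 of 4 an unadjusted p under 0.05 and limma-voom called 0.

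Among extracellular antagonists and latency proteins, 9 of 18 in the table were tested. LTBP2, of the latent TGF-beta binding protein family, was at 4.48 and 4.29 FPKM in vector A and B, at 17.8 and 18.9 FPKM with wild type and at 12.5 and 13.2 FPKM with Q311E. It was the list's clearest separation, with close library pairs and no overlap of groups. LTBP2 rose by 1.84 ± 0.08 on the log2(FPKM + 1) scale with wild type (limma, adjusted p = 0.00145) and by 1.36 with Q311E (adjusted p = 0.00314), and was lower in Q311E than in wild type, at -0.48 (adjusted p = 0.0147). FSTL3, a follistatin-like binder of activin, rose by 0.77 ± 0.15 with wild type (limma, adjusted p = 0.0366). LTBP3, which carries latent TGF-beta, rose by 0.90 ± 0.12 with Q311E (limma, adjusted p = 0.0128) and was higher by 1.07 in Q311E than in wild type (adjusted p = 0.00752). NOG, the BMP antagonist noggin, was at 2.999 and 1.97 FPKM with vector, 1.72 and 1.59 FPKM with wild type and 12.2 and 3.86 FPKM with Q311E. Its Q311E libraries were the highest and lay far apart, and its difference from vector of 1.22 ± 0.46 was not called (limma, adjusted p = 0.126). NOG was picked out after its values were seen.

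Receptors and SMADs were read against the same background of 12.3%, 18% and 27.5% called. Of 8 tested receptors, none was called with wild type (limma, 0 of 8, with 1 at an unadjusted p under 0.05 and 0 called by limma-voom). With only vector and wild type in the fit, 2 of the 8 were called, against 45.9% of all tested genes. With Q311E against vector, TGFBR1, the type I TGF-beta receptor, rose by 0.77 ± 0.14 on the log2(FPKM + 1) scale (limma, adjusted p = 0.0229). BMPR2, the type II BMP receptor, rose by 0.47 ± 0.10 with Q311E (limma, adjusted p = 0.0318) and was higher by 0.58 in Q311E than in wild type (adjusted p = 0.0161). These receptor calls were lost with only the 2 groups compared in the fit. There 0 of the 8 were called with Q311E against vector and 0 against wild type, beside 2.28% and 8.47% of all tested genes. Of 14 tested SMADs and regulators, limma called 0 against vector with wild type and 0 with Q311E, with 2 of 14 at an unadjusted p under 0.05 in each and 0 called by limma-voom. With only the 2 groups compared in the fit, 4 of the 14 were called with wild type, against 45.9% of all tested genes. With Q311E it was 0, against 2.28%. TGIF1, a SMAD co-repressor, was higher by 0.81 ± 0.21 in Q311E than in wild type (limma, adjusted p = 0.0396). That call was also lost with only those groups in the fit, where 0 of the 14 were called, against 8.47%.

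Among TGF-beta and activin target genes, 7 of 15 tested were called in each comparison, in both directions, beside 12.3%, 18% and 27.5% of all tested genes. Values of CCN2 and CDKN2B, and of ID2 among the BMP targets, are given although the naming rule did not select them, and were chosen after they were seen. With wild type 4 rose (among them LTBP2, FN1 and CCN2) and 3 fell (TGFBI, CDKN1A and BHLHE40). CCN2, a matricellular protein, was at 15.3 and 21.9 FPKM in vector A and B, at 80.5 and 77.1 FPKM with wild type and at 67.7 and 147.8 FPKM with Q311E. All 4 libraries with introduced MB21D2 were above both vector libraries, and the log2(FPKM + 1) differences of CCN2 were 2.04 and 2.38 (limma, adjusted p = 0.0299 and 0.0162). FN1, fibronectin, rose by 0.86 ± 0.09 with wild type (limma, adjusted p = 0.00924) and was lower in Q311E than in wild type, at -1.06 (adjusted p = 0.00397). TGFBI, an extracellular matrix protein, fell by 0.55 ± 0.07 with wild type (limma, adjusted p = 0.0144) and by 0.79 with Q311E (adjusted p = 0.0056).

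Among the targets that restrain the cell cycle, CDKN1A went opposite ways in the MB21D2 lines. CDKN1A, the cyclin-dependent kinase inhibitor p21, was at 4.25 and 5.34 FPKM in vector A and B, at 1.998 and 2.35 FPKM with wild type and at 11.4 and 12.8 FPKM with Q311E. It fell by 0.86 ± 0.13 on the log2(FPKM + 1) scale with wild type (limma, adjusted p = 0.0198) and rose by 1.18 with Q311E (adjusted p = 0.00802), and the difference between Q311E and wild type was 2.05 (adjusted p = 0.00228). CDKN2B, the inhibitor p15, was higher by 0.86 ± 0.10 in Q311E than in vector (limma, adjusted p = 0.00974) and by 1.31 than in wild type (adjusted p = 0.00393), and its wild-type difference from vector of -0.45 was not called (adjusted p = 0.0507). ITGB6, the integrin subunit that activates latent TGF-beta, was at 11.05 and 11.04 FPKM with vector, 12.9 and 12.9 FPKM with wild type and 31.3 and 33.4 FPKM with Q311E. It rose by 1.47 ± 0.07 with Q311E over vector (limma, adjusted p = 0.00186) and was higher by 1.26 than in wild type (adjusted p = 0.00185). PMEPA1, a target that dampens SMAD signalling, was picked out after its values were seen. It was at 16.1 and 15.4 FPKM with vector, 35.1 and 34.4 FPKM with wild type and 28.8 and 14.0 FPKM with Q311E, so its libraries stood in an order near that of INHBA, and its wild-type difference of 1.10 ± 0.31 was not called (limma, adjusted p = 0.0773).

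Of the BMP targets other than ID1 and ID3, 5 of 14 were tested. With limma, 0 of 5 were called for wild type against vector (2 at an unadjusted p under 0.05) and 0 for Q311E against wild type (1 at an unadjusted p under 0.05), and limma-voom called 0 in both. With only vector and wild type in the fit, 2 of the 5 were called, against 45.9% of all tested genes. With only Q311E and wild type it was 0, against 8.47%. MSX1, a homeobox gene, fell by 0.54 ± 0.13 with Q311E on the log2(FPKM + 1) scale (limma, adjusted p = 0.0472). It was not called by limma-voom, nor with only vector and Q311E in the fit. ID2, the family member next to ID1 and ID3, was under the filter, with means of 0.150 FPKM with vector, 0.225 with wild type and 0.747 with Q311E.

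**Figure D5:**
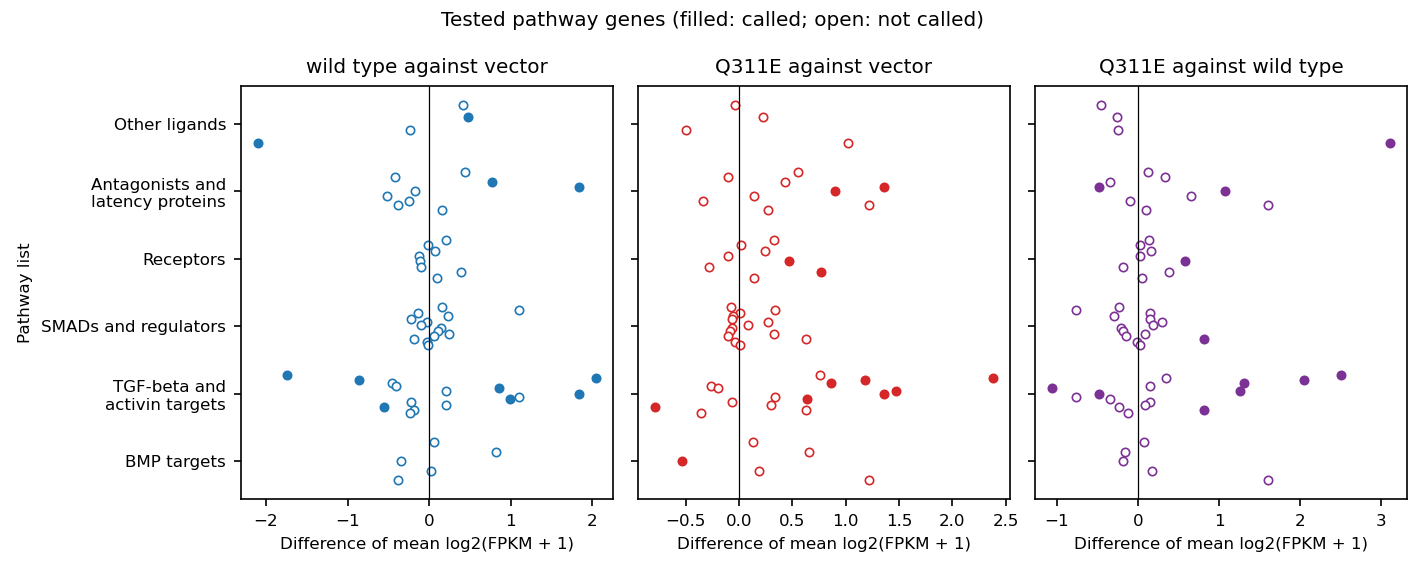
Difference of mean log2(FPKM + 1) (x axis, a scale for each panel) of the 50 tested pathway genes by list (y axis), 1 panel a comparison, filled where called at an adjusted p under 0.05; vertical offsets only separate points. The TGF-beta and activin targets hold called genes on both sides of 0 in each panel, and the SMAD list has 1 called point, for Q311E against wild type.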

How the data were processed

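RNA sequencing gave 6 libraries, 2 per group. The authors deposited 1 table of FPKM values (reads divided by gene length and by the total of the library). CASAVA, mm8 and mm9 are listed, per the submitters' processing notes, with no role given. The IDs are human. Aligner, counter, annotation and strand setting: not given in the sources used here. Symbols came from a gene name table (29993 of 30178 IDs), positions from GENCODE 29 on GRCh38, matched by ID.

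Whole reads were recovered from the FPKM steps for 30147 genes (99.9%, within 0.001 or a relative 2e-06 of the count), 22361 at the GENCODE length and the rest at a fitted length. The library totals were inferred from the same steps. In every library the recovered reads summed to slightly more than that total, as 24214108 against 24147307 in vector A, and the cause was not tested. Recovered reads served the counting intervals and limma-voom.

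Values of log2(FPKM + 1) were tested with limma 3.58.1 (R 4.3.3) for genes with a mean of at least 1 FPKM, all groups in 1 fit with a trended variance prior, and two-sided Benjamini-Hochberg adjusted p under 0.05 over 11481 genes as a call. Fold changes on that scale understate low genes. The scripts were tested on simulated data. Alternatives covered pseudocount, filter, scaling, groups in the fit, variance prior, weights, block, voom and leaving out each library. Members were all named, and from each pathway list up to 2 called genes per direction and comparison by smallest p, besides genes said to be chosen after their values were seen and lists of all calls. Members and lists were chosen with earlier results of these data known. Values of 1 pathway gene are not reported here.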

Additional observations from a re-analysis of the deposited data

How the results depend on the processing

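Counts of called genes moved with the settings as follows, and the cause was not tested. For wild type against vector (3 of the 9 tested genes called), no filter on low values gave 0, only the 2 groups compared in the fit 8, and weights by group 7. Leaving out 1 library gave 0 to 8. For Q311E against vector (3 called), no filter gave 0, 2 groups 0 and no trend in the variance prior 1, and leaving out 1 library gave 0 to 8. For Q311E against wild type (2 called), 1 was called with no filter, with a filter at 5 FPKM, with median scaling, with quantile normalization, with 2 groups and with weights, and leaving out 1 library gave 0 to 7. In these limma fits without filter, 4 and 3 of the 10 had an unadjusted p under 0.05 in the first 2 comparisons. The filter at 5 FPKM left 7 of the 10 genes to test and took out BMP2, which could therefore not be called there. Of the 50 pathway genes tested, 10, 11 and 10 were called. For wild type against vector, no filter gave 3 of 91 tested, 2 groups 26 of 50 and weights 25 of 50. For Q311E against vector, a filter at 5 FPKM gave 7 of 28 tested and 2 groups 4 of 50. Leaving out 1 library gave 0 to 25, 0 to 29 and 0 to 29.

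Leaving out 1 library turned the sign of some log2(FPKM + 1) differences that were not called with all libraries. For Q311E against vector the ranges were -0.30 to 1.09 for INHBA, -0.02 to 0.88 for TGFB2, -0.16 to 0.09 for BMP2, -0.12 to 0.68 for BMP4 and -2.84 to 0.40 for ID1. For Q311E against wild type they were -1.03 to 0.36 for INHBA, -1.81 to 0.14 for INHBB, -0.21 to 0.69 for TGFB2, -0.73 to 0.07 for BMP4, -2.01 to 1.22 for ID1 and -0.68 to 0.35 for ID3. No other alternative turned a sign.

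The letters A and B were not taken to pair the libraries, because the labels do not say that they mark a shared culture or batch. Over 11481 genes the A minus B differences correlated at r = -0.03 (vector with wild type), 0.39 (vector with Q311E) and -0.01 (wild type with Q311E). Those of vector and Q311E thus ran partly together, and the cause was not tested. With a replicate block, 2, 2 and 2 of the 9 genes and 9, 10 and 11 pathway genes were called. BMP2 in wild type against vector (adjusted p = 0.058) and FST in Q311E against vector (0.0667) were then not called.

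With 2 libraries a group and 3 residual degrees of freedom, a difference missed by the test is not shown to be absent, and low genes such as SMAD7 rest on under 100 reads.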

Other observations

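As a description, the tested genes most like INHBA over the 6 libraries on log2(FPKM + 1) were DNMBP (Pearson r = 0.998), TIMELESS (0.994) and TEAD1 (0.992), and 10 tested genes reached 0.99. Those most like ID1 were TMUB1 (0.994), TPI1 (0.994) and EIF3E (0.991), with 3 genes at 0.99 or above. Those most like SMAD7 were TAF15 (0.989), an ID with no symbol (0.985) and ENO1 (0.982). The range was narrow for some of them: EIF3E lay between 54.4 FPKM in Q311E A and 59.3 FPKM in Q311E B, whereas TMUB1 went from 20.47 to 43.1 FPKM. The 6 libraries share 3 lines, so these values rest on few independent points.

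BMP7, a BMP ligand under the filter on low values, was picked out after its values were seen. It was at 0.0534 and 0.0446 FPKM in vector A and B, at 0.00808 and 0.0173 FPKM with wild type and at 2.78 and 0.597 FPKM with Q311E. ENG, the co-receptor endoglin, also under the filter and picked out in the same way, was at 0.147 and 0.160 FPKM with vector, 0.234 and 0.286 FPKM with wild type and 1.70 and 2.95 FPKM with Q311E. Both were higher in the Q311E libraries than in the other 4. Neither entered the main fit. In the limma fit with no filter on low values, the Q311E difference from vector was 1.5 ± 0.21 on the log2(FPKM + 1) scale for ENG (adjusted p = 0.0405) and 1.23 ± 0.42 for BMP7 (adjusted p = 0.197).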
